A study of Mus musculus with 12 samples.

Results

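The monocyte and macrophage effector genes F13a1, Ms4a6c, Ms4a6d, Ly6c2, Fcgr1, Mpeg1, Cybb, Lgals3, Cd68 and Unc93b1 were followed through 12 RNA-seq libraries of bone marrow progenitors. They were listed by name, with earlier results of these data known, and are 10 of the 23386 genes that could be joined over all libraries. The study compared mice without an enhancer of Cebpa, the gene of the transcription factor C/EBPα that granulocyte and monocyte commitment depends on, with wild-type mice. Both genotypes are C57BL/6 mice. In the enhancer-null mice both copies of the enhancer 42 kb from Cebpa are deleted, and the labels name no Cre, transgene, treatment or age.

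Common myeloid progenitors (CMP) and LSK cells were collected from each genotype, which gives 4 groups of 3 libraries. LSK cells, named for lack of lineage markers and for Sca-1 and Kit on their surface, are the fraction that holds the stem cells, and CMP lie downstream of it. The libraries are named by the number in their label, 1, 2 and 7 in enhancer-null CMP, 1, 6 and 8 in wild-type CMP, 1, 2 and 7 in enhancer-null LSK, and 1, 6 and 8 in wild-type LSK. The labels do not say that the libraries of a group came from separate mice, so the p-values below measure the spread between these libraries.

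Monocytes leave the bone marrow as circulating phagocytes and can become macrophages in tissues. The 10 genes encode parts of what these cells use: an enzyme that cross-links fibrin (F13a1), surface proteins (Ms4a6c, Ms4a6d, Ly6c2 and the antibody receptor Fcgr1), proteins of the phagosome and lysosome (Mpeg1, Cybb, Cd68 and the sugar-binding Lgals3), and a carrier of endosomal Toll-like receptors (Unc93b1). In progenitors such genes are often transcribed at a low level before the mature cell exists, which is called lineage priming.

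Library facts that touch the results are these. Counts assigned to genes ran from 6170491 to 49149674 per library, and every level below is in CPM, a gene's count per 1000000 gene counts after TMM scaling over the 12 libraries. A total of 3 counts, taken as the floor of detection, corresponds to 0.0604 to 0.482 CPM, and such floors cover counting error only. Missing counts were most frequent in enhancer-null CMP replicate 1, which lacked 3.56% of the 9184 genes averaging 10 CPM or more, ahead of wild-type LSK replicate 6 (1.82%) and enhancer-null CMP replicate 7 (1.55%). Cebpa itself had 0, 3 and 0 counts in enhancer-null CMP, against 544, 270 and 463 in wild-type CMP, and 1, 0 and 15 counts in enhancer-null LSK, against 226, 118 and 39 in wild-type LSK, which fits the labels. Kit was at 258 CPM or more in all 12 libraries, and Ly6a, which encodes Sca-1, was at 0.182 to 12.8 CPM in the 6 CMP libraries and 134 to 198 CPM in the 6 LSK libraries. By Xist and Y-linked genes, the male libraries were those of replicate 1 in both genotypes and of enhancer-null replicate 2, so sex was not balanced between genotypes.

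The levels of the 10 genes in wild-type CMP differed widely. Per kilobase of exon, the order of mean levels was Unc93b1 at 85.9 ± 12.9, F13a1 at 70.4 ± 12.3, Ms4a6c at 64.5 ± 10.4, Ly6c2 at 34.3 ± 21.2, Cd68 at 22.5 ± 3.61 and Mpeg1 at 15.7 ± 1.03 CPM per kilobase (SD, n = 3). Far lower came Lgals3 at 4.03 ± 5.12, Cybb at 3.59 ± 4.13, Ms4a6d at 0.356 ± 0.357 and Fcgr1 at 0.11 ± 0.124 CPM per kilobase. Neighbours in this order overlapped between libraries, except that every Cd68 value lay above every Mpeg1 value and every Mpeg1 value above every Lgals3 value. Summed over the 10 genes, the level was 56.7, 65.2 and 83.8 CPM in enhancer-null CMP, against 1140, 1120 and 1000 CPM in wild-type CMP. In LSK the sum was 167, 151 and 138 CPM in enhancer-null cells and 218, 132 and 187 CPM in wild-type cells. Unc93b1 alone made up most of these sums, except in wild-type CMP, where F13a1 and Unc93b1 together did.

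**Figure D1:**
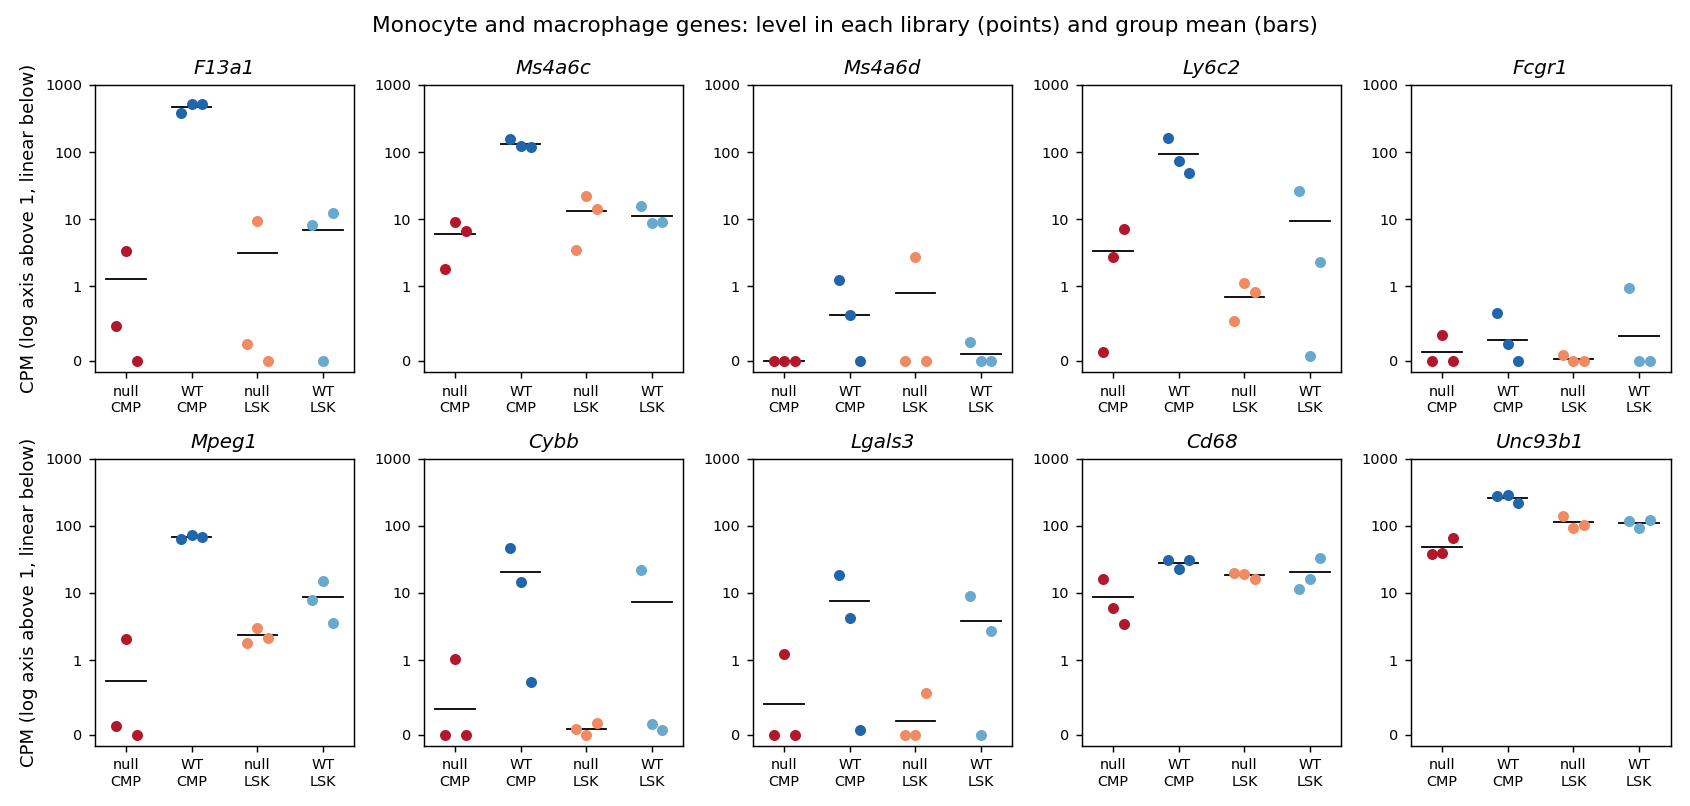
Level of each of the 10 genes in each library, in CPM on an axis that is logarithmic above 1 and linear below, with points for libraries and bars for group means (n = 3 per group). The wild-type CMP libraries lie above all 3 enhancer-null CMP libraries for 6 genes, for example F13a1 (378 CPM or more against 3.38 CPM or less), while the LSK groups lie close together for Ms4a6c, Cd68 and Unc93b1.

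Enhancer-null CMP were first compared with wild-type CMP. F13a1, Ms4a6c and Unc93b1 fell in the enhancer-null cells, the other 5 genes that could be tested had negative fold changes that did not pass the test, and 2 were too low to be tested. By the ratio of summed depth-scaled counts, F13a1 was 282-fold, Ms4a6c 19.9-fold and Unc93b1 5.45-fold lower in enhancer-null CMP. Each of the 10 genes had a lower mean in enhancer-null CMP, and for 6 of the 10 the libraries of the groups did not overlap, where 12.9% of the 11723 genes tested were lower without overlap. By edgeR's quasi-likelihood test, 3 of the 10 passed, all lower, where 0.0938% of all genes tested passed as lower, 0.435% as higher and 0.529% in either direction. The median log2 fold change was −4.61 over the 8 tested genes and −0.0218 over all genes tested. Genes that passed the filter only because wild-type CMP express them could hardly differ the other way, so that median and these counts describe the genes and are no support for them. In bulk RNA, fewer cells of a type and less RNA per cell cannot be told apart.

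F13a1 encodes the A subunit of coagulation factor XIII, the transglutaminase that cross-links fibrin and that monocytes and macrophages also carry inside the cell. It lies on chromosome 13, 36867178 to 37050244, minus strand (build mm10, as all positions here). Its level was 0.461, 3.38 and 0 CPM in enhancer-null CMP replicates 1, 2 and 7, from 4, 69 and 0 counts. In wild-type CMP replicates 1, 6 and 8 it was 378, 524 and 520 CPM, from 11913, 9408 and 8038 counts. The highest enhancer-null library thus stood 112 times below the lowest wild-type library. On the log2 scale the fold change was −8.39 (SE 1.11, edgeR adjusted p = 0.0268). Its exons overlap those of Gm30489 on the other strand, and the counting is not known to have used strand.

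The 250 bases before the F13a1 start that adjoins the annotated gene are shown because this gene had the widest gap between genotypes (RefSeq, GRCm38.p6, chr13:37050245-37050494, minus strand, 5′ to 3′, all in lower case since none of the 3 motifs searched was found in it).
F13a1 promoter: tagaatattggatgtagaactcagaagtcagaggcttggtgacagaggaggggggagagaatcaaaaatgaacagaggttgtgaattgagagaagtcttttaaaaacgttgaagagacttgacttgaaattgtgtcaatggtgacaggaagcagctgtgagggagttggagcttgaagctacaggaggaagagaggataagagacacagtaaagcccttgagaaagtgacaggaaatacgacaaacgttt
The motifs searched on both strands were a PU.1-type site (GAGGAAGT), a C/EBP-type site (TTGCNNAA) and an ETS-IRF composite site (GGAA and GAAA parted by any 2 bases), after the factors of monocyte commitment, and the PU.1-type and composite letters can overlap. Of 32851 RefSeq promoter windows of this length, 2.44% held the first, 9.56% the second and 2.3% the third. A match is a run of letters and not a shown binding site, and no match says only that these letters are not in the window.

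Of 10 other coagulation and fibrinolysis genes of monocytes, 3 could be tested in CMP and none passed edgeR's test, 1 having an unadjusted p under 0.05 and 1 being called by DESeq2. Tgfbi, a secreted matrix protein of monocytes, had the smallest p, at 0.0874 ± 0.0773 CPM in enhancer-null and 10.2 ± 9.98 CPM in wild-type CMP (log2 fold change −6.75, SE 1.98, edgeR adjusted p = 0.23). F13b, which encodes the carrier subunit of plasma factor XIII, was at 0 in all 3 enhancer-null CMP libraries and at 0.0557 CPM or less in wild-type CMP.

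Ms4a6c and Ms4a6d belong to the MS4A family of proteins that cross the membrane several times, and both lie in the family's cluster on chromosome 19 (Ms4a6c at 11469366 to 11482192, plus strand, and Ms4a6d at 11586604 to 11604849, minus strand). Ms4a6c was at 1.84, 9.21 and 6.74 CPM in enhancer-null CMP, against 157, 121 and 118 CPM in wild-type CMP. No library of one group came near the other, the closest pair being 12.9-fold apart. For Ms4a6c the log2 fold change was −4.45 (SE 0.59, edgeR adjusted p = 0.0268). Ms4a6d had no count in any enhancer-null CMP library, against 39, 11 and 0 counts (1.24, 0.613 and 0 CPM) in wild-type CMP. By summed counts, with the floor of 3 counts over the enhancer-null group, Ms4a6d was at least 11.7-fold lower there. The libraries overlapped at 0, so this bound is one of the sums and not of single libraries. The gene was too low for the test.

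No 75-base window was shared between Ms4a6c and Ms4a6d, although they are paralogs. The coding sequences of Ms4a6c and Ms4a6d were identical at 79% of 638 aligned bases and those of Ms4a6c and Ms4a6b at 85.4% of 642. The stretch below, coding bases 324 to 398 of both (mm10, GENCODE M21), is the one in which the pair differs most, with capitals at its 26 differences.
Ms4a6c: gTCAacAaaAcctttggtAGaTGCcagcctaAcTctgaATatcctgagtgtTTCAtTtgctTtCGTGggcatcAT
Ms4a6d: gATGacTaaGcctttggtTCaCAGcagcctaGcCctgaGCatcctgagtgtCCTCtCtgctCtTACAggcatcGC
Of the 1767 windows of 75 bases in Ms4a6c transcripts, 22 also occur in Ms4a6b, 35 in Prdm11 and 943 in BE692007, which is transcribed from the other strand of the same locus and has no row in the joined files. For Ms4a6d, 7 of 1462 windows also occur in Ms4a6b. The Ms4a6c values are therefore those of the locus wherever the counting ignored strand.

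The window before the Ms4a6c start is shown as the second of the genes that passed the test (RefSeq, GRCm38.p6, chr19:11469118-11469367, plus strand, with none of the motifs searched).
Ms4a6c promoter: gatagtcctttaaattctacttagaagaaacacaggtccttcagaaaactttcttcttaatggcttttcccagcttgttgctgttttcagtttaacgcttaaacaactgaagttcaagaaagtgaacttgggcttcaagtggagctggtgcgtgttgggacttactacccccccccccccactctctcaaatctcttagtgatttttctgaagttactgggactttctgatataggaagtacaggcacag
Of 14 further Ms4a genes 12 are in the files, 6 could be tested in CMP and none passed edgeR's test, all 6 with a negative log2 fold change, 4 at an unadjusted p under 0.05 and 2 called by DESeq2. Ms4a4c was at 0 in all 3 enhancer-null CMP libraries and at 14.1, 11.4 and 12.2 CPM in wild-type CMP (edgeR adjusted p = 0.101). Ms4a6b, the closest paralog, was at 12.6, 6.07 and 16 CPM in enhancer-null CMP, against 48.7, 30.3 and 32.6 CPM in wild-type CMP.

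Ly6c2 encodes a GPI-anchored surface protein that the Ly6C antibody used to sort inflammatory monocytes detects, together with its near twin Ly6c1. It lies on chromosome 15, 75108158 to 75111970, minus strand. Its level was 0.115, 2.74 and 7.05 CPM in enhancer-null CMP, against 160, 73.2 and 49.2 CPM in wild-type CMP. The groups did not overlap, but the 3 wild-type libraries were spread over a wide range, with replicate 1 highest. The log2 fold change of −4.78 (SE 1.12) did not pass edgeR's test (adjusted p = 0.138).

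The first 75 coding bases of Ly6c2 and Ly6c1 (mm10, GENCODE M21) are shown because the genes differ so little, with capitals at the 6 differences in this stretch.
Ly6c2: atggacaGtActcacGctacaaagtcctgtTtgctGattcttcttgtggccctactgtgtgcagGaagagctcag
Ly6c1: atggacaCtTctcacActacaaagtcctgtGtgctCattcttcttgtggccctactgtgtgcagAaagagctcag
Over 386 aligned coding bases the pair was 92.7% identical, with 28 differences, and 164 of the 792 windows of 75 bases in Ly6c2 transcripts also occur in Ly6c1. Ly6c1 was nevertheless nearly silent, at 0, 0.196 and 0.608 CPM in enhancer-null CMP and 0.762, 0.446 and 0.129 CPM in wild-type CMP. Ly6c2 was one of the 2 genes of the list whose promoter window held a motif searched, here the PU.1-type letters, in capitals at 108 to 101 bases before the start (RefSeq, GRCm38.p6, chr15:75111972-75112221, minus strand).
Ly6c2 promoter: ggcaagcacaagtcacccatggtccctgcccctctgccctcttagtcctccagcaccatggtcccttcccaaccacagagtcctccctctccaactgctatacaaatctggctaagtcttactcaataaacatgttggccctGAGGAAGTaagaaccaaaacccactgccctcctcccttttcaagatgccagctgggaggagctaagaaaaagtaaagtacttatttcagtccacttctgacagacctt
Of the other Ly6 genes of the cluster, 8 of 10 are in the files, 4 could be tested in CMP and none passed edgeR's test, all 4 with a positive log2 fold change, 1 at an unadjusted p under 0.05 and 1 called by DESeq2. Ly6e, a broadly expressed member, was at 1330 ± 281 CPM in enhancer-null and 821 ± 67.2 CPM in wild-type CMP (log2 fold change 0.71, SE 0.16, edgeR adjusted p = 0.134).

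Fcgr1, the high-affinity receptor for IgG, was close to undetected everywhere (chromosome 3, 96282909 to 96293969, minus strand). It was at 0, 0.343 and 0 CPM in enhancer-null CMP, against 0.635, 0.223 and 0 CPM in wild-type CMP, from 7 counts in the enhancer-null group and 24 in the wild-type group. The groups overlapped at 0 and the gene was not tested. Of 6 other Fc receptor genes, 4 could be tested in CMP and none passed edgeR's test, with 1 at an unadjusted p under 0.05 and 1 called by DESeq2. Fcer1g, the signalling chain that Fcgr1 shares with other receptors, was at 86.1, 51.7 and 54.3 CPM in enhancer-null CMP and 125, 75.8 and 54.3 CPM in wild-type CMP. Fcer1a, the IgE-binding chain found on mast cells and basophils, stood the other way, at 14.4 ± 5.43 CPM in enhancer-null and 0.13 ± 0.225 CPM in wild-type CMP (log2 fold change 6.76, SE 2.03, edgeR adjusted p = 0.24).

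Mpeg1 encodes perforin-2, a pore-forming protein that macrophages direct at engulfed bacteria, and lies on chromosome 19, 12460779 to 12465283, plus strand. It was at 0.115, 2.06 and 0 CPM in enhancer-null CMP, from 43 counts in all. In wild-type CMP it was at 63.8, 72.8 and 67.9 CPM, the most even of the 10 genes there with a coefficient of variation of 6.56%. The closest libraries of the groups were 31-fold apart, and no wild-type library stood out. The log2 fold change was −6.46 (SE 1.42), which did not pass edgeR's test (adjusted p = 0.111).

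The Mpeg1 window is shown beside those of Ms4a6c, also on chromosome 19, and of F13a1, since all 3 were even in wild-type CMP and without overlap between genotypes (RefSeq, GRCm38.p6, chr19:12460520-12460769, plus strand, with none of the motifs searched).
Mpeg1 promoter: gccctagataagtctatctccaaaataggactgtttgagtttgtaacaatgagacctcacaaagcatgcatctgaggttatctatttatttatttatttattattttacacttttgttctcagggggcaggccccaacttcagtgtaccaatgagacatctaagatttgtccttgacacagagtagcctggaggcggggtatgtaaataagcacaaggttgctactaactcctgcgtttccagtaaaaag

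Cybb encodes gp91phox, the catalytic chain of the phagocyte NADPH oxidase (chromosome X, 9435252 to 9487771, minus strand). Its level was 0, 1.03 and 0 CPM in enhancer-null CMP, against 47.4, 14.4 and 0.711 CPM in wild-type CMP. Wild-type replicate 1 held most of the signal and replicate 8 lay below enhancer-null replicate 2, so the groups overlapped. The log2 fold change of −5.81 (SE 2.24) did not pass edgeR's test (adjusted p = 0.35). Of 10 partners and relatives of the oxidase, 9 are in the files, 7 could be tested and none passed edgeR's test, with 2 at an unadjusted p under 0.05 and 0 called by DESeq2. Of the 7, 5 had a negative and 2 a positive log2 fold change, with a median of −0.53. Both positive values were those of the small GTPases Rac1 and Rac2, which also serve many other processes and made up most of the summed level, at 429 ± 54.2 and 552 ± 92.8 CPM in enhancer-null CMP, against 393 ± 71.7 and 447 ± 27.6 CPM in wild-type CMP. The related catalytic chains Nox1 and Nox4 had 1 and 0 counts in enhancer-null CMP, against 0 and 62 counts in wild-type CMP, and were not tested. Ncf4, the p40phox subunit, was at 26.5, 12.8 and 24.7 CPM in enhancer-null CMP, against 70.1, 50.2 and 43.3 CPM in wild-type CMP, without overlap (log2 fold change −1.34, SE 0.44, edgeR adjusted p = 0.268). Cyba, the p22phox chain that gp91phox pairs with in the membrane, was at 43.3, 36.9 and 37.9 CPM in enhancer-null CMP, against 110, 81.4 and 54.4 CPM in wild-type CMP. This difference left no overlap but did not pass (log2 fold change −1.04, SE 0.33, edgeR adjusted p = 0.259).

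Lgals3 encodes galectin-3, a sugar-binding protein that macrophages make in quantity (chromosome 14, 47367751 to 47386160, plus strand). It was at 0, 1.22 and 0 CPM in enhancer-null CMP, against 18.2, 4.18 and 0.0647 CPM in wild-type CMP. As for Cybb, wild-type replicate 1 was highest and replicate 8 was near 0, and the groups overlapped. Lgals3 had a log2 fold change of −4.12 (SE 2.52, edgeR adjusted p = 0.592). Of 8 other galectin genes 5 could be tested in CMP and none passed edgeR's test, with 1 at an unadjusted p under 0.05 and 1 called by DESeq2. Lgals1, with the smallest p among them, was at 52 ± 35 CPM in enhancer-null and 192 ± 54.4 CPM in wild-type CMP (log2 fold change −1.88, SE 0.56, edgeR adjusted p = 0.234).

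Cd68 encodes macrosialin, a heavily glycosylated protein of late endosomes and lysosomes that is a standard macrophage stain (chromosome 11, 69664213 to 69666153, minus strand). Its level was 16.3, 5.97 and 3.4 CPM in enhancer-null CMP, against 31.3, 23.1 and 30.5 CPM in wild-type CMP. The groups stood apart, but the closest libraries by only 1.42-fold. The log2 fold change of −1.72 (SE 0.76) did not pass edgeR's test (adjusted p = 0.415). Of 5 relatives of Cd68 and Mpeg1, 2 could be tested and none passed edgeR's test, with 1 at an unadjusted p under 0.05 and 0 called by DESeq2. Lamp1, the main membrane protein of lysosomes, was at 263 ± 10.6 CPM in enhancer-null and 363 ± 15.7 CPM in wild-type CMP (log2 fold change −0.46, SE 0.14, edgeR adjusted p = 0.247).

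The Cd68 window was the only other one of the list with a motif searched, the C/EBP-type letters, in capitals at 43 to 36 bases before the start (RefSeq, GRCm38.p6, chr11:69666171-69666420, minus strand).
Cd68 promoter: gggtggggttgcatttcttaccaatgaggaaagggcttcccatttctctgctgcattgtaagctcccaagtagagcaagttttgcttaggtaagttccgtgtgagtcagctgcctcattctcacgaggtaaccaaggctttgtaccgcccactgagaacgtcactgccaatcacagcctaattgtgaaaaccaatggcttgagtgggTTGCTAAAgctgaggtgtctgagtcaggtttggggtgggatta
Promoter windows were found for 8 of the 10 genes, 10 windows in all, of which 2 held the PU.1-type letters (both Ly6c2), 1 the C/EBP-type letters and 0 the composite letters.

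Unc93b1 encodes the chaperone that carries the nucleic acid-sensing Toll-like receptors from the endoplasmic reticulum to the endosome (chromosome 19, 3935186 to 3949340, plus strand). Per kilobase it had the highest mean level of the 10 in each of the 4 groups. In enhancer-null CMP it was at 37.9, 39.3 and 66.7 CPM, against 281, 285 and 215 CPM in wild-type CMP. Every enhancer-null library lay at least 3.23-fold below every wild-type library. The log2 fold change was −2.43 (SE 0.29, edgeR adjusted p = 0.0193). Of 11 endosomal Toll-like receptors and helpers, 6 could be tested in CMP and none passed edgeR's test, with 1 at an unadjusted p under 0.05 and 1 called by DESeq2. Tlr9 and Tlr8 were at 0 in all 3 enhancer-null CMP libraries and at 0.947 and 1.89 CPM or less in wild-type CMP. Tlr7, another receptor that Unc93b1 carries, was at 24.9, 7.15 and 2.67 CPM in enhancer-null and 6.41, 9.92 and 0 CPM in wild-type CMP. Lgmn, a protease that processes these receptors, had the smallest p, at 0.485 ± 0.689 CPM in enhancer-null and 11.2 ± 1.47 CPM in wild-type CMP (log2 fold change −4.47, SE 1.70, edgeR adjusted p = 0.341).

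Leaving out 1 library changed these calls. Without any 1 of wild-type CMP replicates 1, 6 and 8, none of the 10 genes passed edgeR's test. Without enhancer-null CMP replicate 2, Mpeg1 passed and Unc93b1 did not, and without enhancer-null CMP replicate 7, Ms4a6c did not. Over 12 alternatives the edgeR or DESeq2 adjusted p ran from 6.27e-06 to 0.173 for F13a1, from 9.53e-14 to 0.163 for Ms4a6c and from 3.88e-12 to 0.111 for Unc93b1, which passed in 6, 7 and 8 of them. With sex as a covariate only Unc93b1 passed, with all 4 groups in 1 fit Mpeg1 passed in place of F13a1, and DESeq2 called 6 of the 10, adding Ly6c2, Mpeg1 and Cybb. The separation of 6 genes without overlap held with enhancer-null CMP replicate 1 left out, where 17.6% of genes tested were lower without overlap, and with wild-type CMP replicate 1 left out, where 15.9% were.

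**Figure D2:**
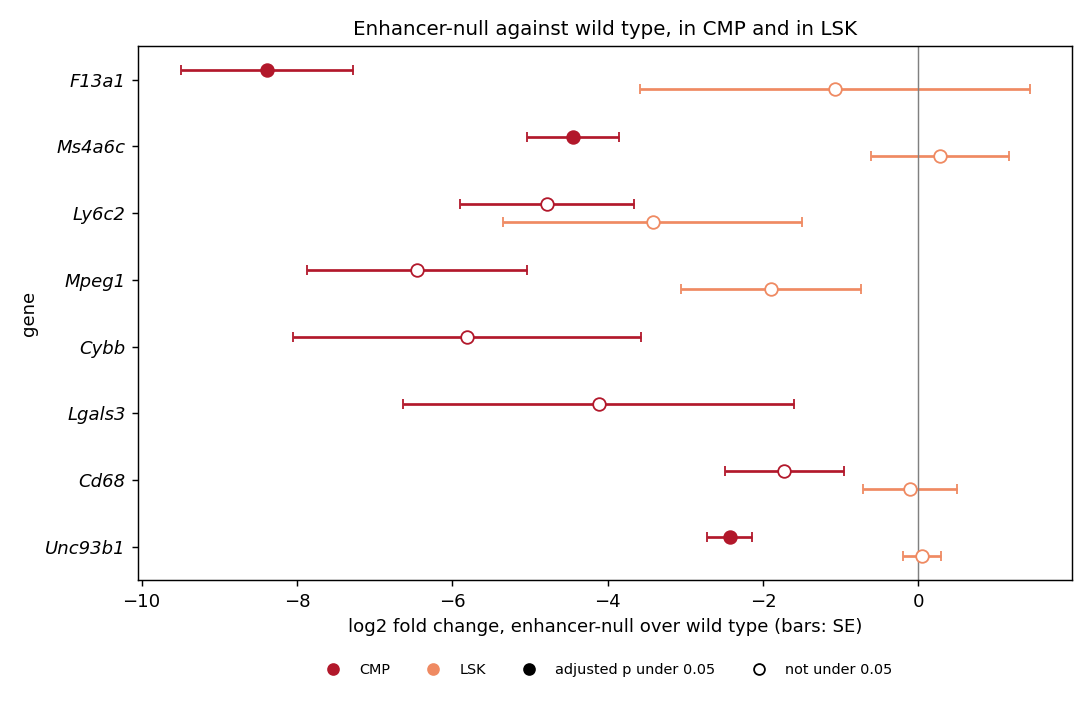
Log2 fold change of enhancer-null over wild-type cells for the genes that could be tested, in CMP and in LSK, with bars for 1 SE. Filled points passed edgeR's test, which F13a1, Ms4a6c and Unc93b1 did in CMP (log2 fold change −8.39, −4.45 and −2.43) and no gene did in LSK, where Ms4a6c, Cd68 and Unc93b1 lay at 0.28, −0.11 and 0.05.

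The same comparison was made in LSK, upstream of CMP. Here none of the 10 genes passed edgeR's test, with 6 tested, 0 at an unadjusted p under 0.05 and 0 called by DESeq2, where 0.103% of the 11621 genes tested passed in either direction. Unc93b1 was at 141, 93.7 and 104 CPM in enhancer-null LSK, against 117, 91.7 and 124 CPM in wild-type LSK. Its log2 fold change was 0.05 (SE 0.24, edgeR adjusted p = 0.973). Ms4a6c was at 3.46, 22.2 and 14 CPM in enhancer-null LSK and 15.5, 8.66 and 9.08 CPM in wild-type LSK (log2 fold change 0.28, SE 0.89, edgeR adjusted p = 0.959), and Cd68 at 18.4 ± 2.11 and 20.2 ± 11.3 CPM (log2 fold change −0.11, SE 0.61, edgeR adjusted p = 0.978). In each of these 3 genes the libraries of the genotypes were interleaved.

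Mpeg1 was the 1 gene of the 10 whose LSK libraries did not overlap, where 10.4% of genes tested were lower without overlap. It was at 1.77, 3.05 and 2.15 CPM in enhancer-null LSK, against 7.93, 14.9 and 3.6 CPM in wild-type LSK. The closest libraries were 1.18-fold apart and the log2 fold change of −1.89 (SE 1.16) did not pass (edgeR adjusted p = 0.73). F13a1 was uneven in both groups, at 0.23, 9.32 and 0 CPM in enhancer-null LSK and 8.13, 0 and 12.3 CPM in wild-type LSK (log2 fold change −1.07, SE 2.51, edgeR adjusted p = 0.942). Each group had 1 library without a count of it.

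Ly6c2, Cybb, Lgals3 and Fcgr1 were present in wild-type LSK mainly in replicate 1. Ly6c2 was at 0.538, 1.12 and 0.926 CPM in enhancer-null LSK, against 26, 0.0699 and 2.27 CPM in wild-type LSK (log2 fold change −3.42, SE 1.92, edgeR adjusted p = 0.702). Cybb was at 0.0768, 0 and 0.161 CPM in enhancer-null LSK and 21.6, 0.14 and 0.0631 CPM in wild-type LSK. For Lgals3 the values were 0, 0 and 0.564 CPM in enhancer-null LSK and 8.88, 0 and 2.71 CPM in wild-type LSK. Fcgr1 had 1 count in all enhancer-null LSK libraries and 34 counts in wild-type LSK, all of them in replicate 1. Ms4a6d had counts in 1 library per genotype, 2.73 CPM in enhancer-null replicate 2 and 0.259 CPM in wild-type replicate 1. The last 4 of these genes were too low to be tested in LSK.

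The families and pathways around the 10 genes were also compared in LSK. None of the tested genes passed edgeR's test among the oxidase partners (7 tested), Fc receptors (4), Toll-like receptors and helpers (6), Ms4a family (4), Ly6 genes (3), galectins (5), Cd68 and Mpeg1 relatives (2) and coagulation genes (4). The smallest p of each belonged to Cyba, Fcgr2b, Myd88, Ms4a6b, Ly6e, Lgals9, Lamp1 and Tgfbi, with edgeR adjusted p between 0.281 and 0.886, and 1 gene of these lists, Ly6e, was called by DESeq2. An unadjusted p under 0.05 was found for 2 oxidase partners, 1 Ly6 gene, 1 galectin and 1 coagulation gene, and for 0 genes of the other 4 lists. Cyba, as in CMP, stood without overlap, at 74.9, 65.9 and 72.8 CPM in enhancer-null LSK and 110, 125 and 110 CPM in wild-type LSK (log2 fold change −0.67, SE 0.21, edgeR adjusted p = 0.448).

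Whether the genotype effect itself differed between CMP and LSK was tested with an interaction term over the 12 libraries. Of the 10 genes 9 could be tested and 1 passed, Unc93b1, where 0.0709% of the 12687 genes tested passed as more negative in CMP and 0.292% in either direction. Its genotype effect was 2.44 lower in CMP than in LSK on the log2 scale (difference −2.44, SE 0.38, edgeR adjusted p = 0.0184). Ms4a6c had a difference of −4.70 (SE 0.96, edgeR adjusted p = 0.0821), F13a1 one of −7.02 (SE 2.39, edgeR adjusted p = 0.427) and Mpeg1 one of −4.55 (SE 1.63, edgeR adjusted p = 0.472). For Ly6c2, Cybb, Cd68 and Lgals3 the differences lay between −1.58 and 0.35, with edgeR adjusted p of 0.792 or more. Ms4a6d, which had no count in enhancer-null CMP, did not pass (edgeR adjusted p = 0.639). The Unc93b1 call was lost without wild-type CMP replicate 1 or 6 and without enhancer-null LSK replicate 1, when Ms4a6c passed, and over 17 alternatives, of which 13 passed, its adjusted p ran from 8.63e-07 to 0.107.

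The step between cell types was next followed within each genotype. Between enhancer-null CMP and enhancer-null LSK none of the 10 genes passed edgeR's test, with 5 tested, 1 at an unadjusted p under 0.05 and 0 called by DESeq2. In that comparison 0% of the 11267 genes tested passed, 780 had an unadjusted p under 0.05, and DESeq2 called 205. Unc93b1 was the 1 gene of the 10 that was lower without overlap in enhancer-null CMP, at 37.9, 39.3 and 66.7 CPM, against 141, 93.7 and 104 CPM in enhancer-null LSK, where 9.24% of genes tested were lower without overlap. Its log2 fold change was −1.23 (SE 0.34, unadjusted p = 0.00716, edgeR adjusted p = 0.457). Ms4a6c (log2 fold change −1.14), Mpeg1 (−1.63) and Cd68 (−1.11) had negative values and Ly6c2 (1.95) a positive one, with edgeR adjusted p of 0.92 to 0.956.

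In wild-type cells the step was an increase for F13a1, Ms4a6c, Mpeg1 and Unc93b1, which were higher in CMP than in LSK. Of the 10 genes 8 could be tested and these 4 passed, or 2 of them (Ms4a6c and Unc93b1) with all 4 groups in 1 fit, where 2.15% of the 12030 genes tested passed as higher and 4.21% in either direction. Without overlap, 5 of the 10 were higher in wild-type CMP, where 15.9% of genes tested were. F13a1 was at 378, 524 and 520 CPM in wild-type CMP, against 8.13, 0 and 12.3 CPM in wild-type LSK (log2 fold change 6.17, SE 1.16, edgeR adjusted p = 0.0318). Ms4a6c stood 3.63 higher on the log2 scale (SE 0.33, edgeR adjusted p = 0.00367), at 132 ± 21.4 CPM in wild-type CMP and 11.1 ± 3.85 CPM in wild-type LSK. For Mpeg1 the log2 fold change was 3.0 (SE 0.55, edgeR adjusted p = 0.0288) and the levels 68.2 ± 4.47 and 8.8 ± 5.69 CPM, and for Unc93b1 it was 1.29 (SE 0.20, edgeR adjusted p = 0.0183) and the levels 260 ± 39.1 and 111 ± 17 CPM.

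Ly6c2 was the fifth without overlap (log2 fold change 3.37, SE 1.43, edgeR adjusted p = 0.239), with 49.2 CPM in the lowest wild-type CMP library and 26 CPM in the highest wild-type LSK library. Cybb, Lgals3 and Cd68 overlapped between the wild-type cell types, with log2 fold changes of 1.59 (SE 2.02), 1.02 (SE 2.05) and 0.54 (SE 0.52) and edgeR adjusted p of 0.72, 0.832 and 0.626. Of the 4 calls, that of Ms4a6c was made in each of 12 alternatives (adjusted p up to 0.0366). Those of F13a1, Mpeg1 and Unc93b1 were lost without any 1 of the wild-type CMP libraries or wild-type LSK replicate 1, and that of F13a1 also without wild-type LSK replicate 8. The comparisons share groups, since wild-type CMP enter both the genotype and the cell type comparison, so their fold changes are not independent of each other.

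**Figure D3:**
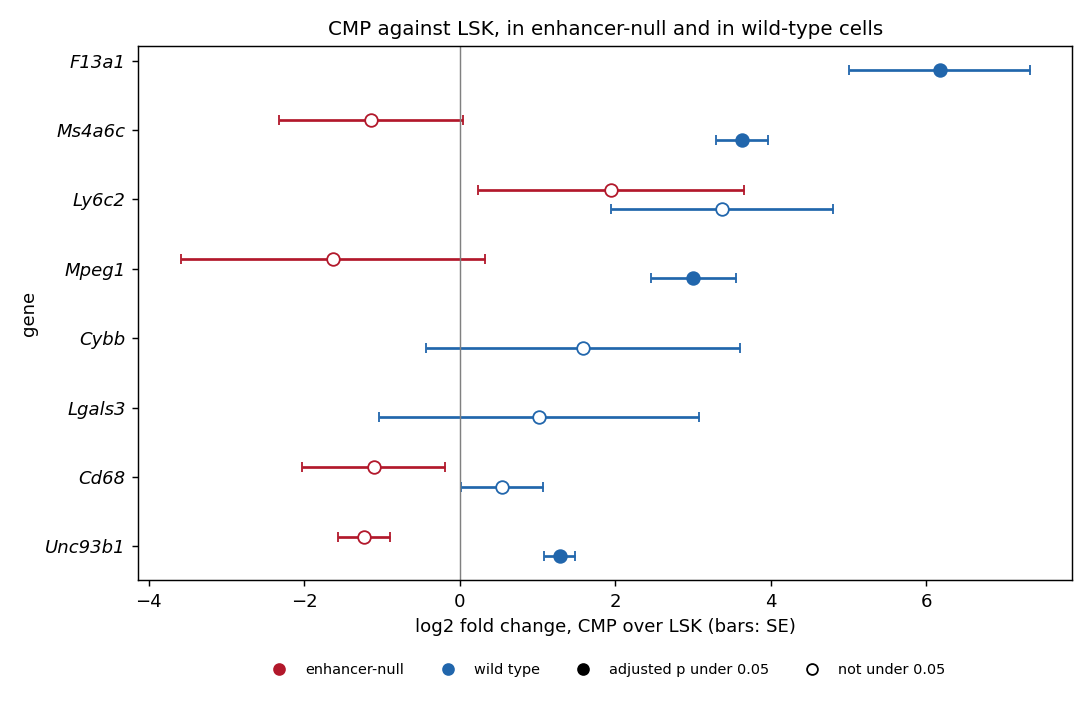
Log2 fold change of CMP over LSK for the genes that could be tested, in enhancer-null and in wild-type cells, with bars for 1 SE. Filled points passed edgeR's test, which F13a1, Ms4a6c, Mpeg1 and Unc93b1 did in wild-type cells (log2 fold change 6.17, 3.63, 3.0 and 1.29) and no gene did in enhancer-null cells, where Ms4a6c, Mpeg1, Cd68 and Unc93b1 lay below 0.

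The wild-type CMP libraries showed the 10 genes in 2 patterns. F13a1, Ms4a6c, Mpeg1, Cd68 and Unc93b1 were even, with every library at 72.1% or more of the highest. Ms4a6d, Ly6c2, Fcgr1, Cybb and Lgals3 were highest in replicate 1, with replicates 6 and 8 below 50% of it: Lgals3 stood at 22.9% and 0.355% and Cybb at 30.3% and 1.5% of its replicate 1 level. These 2 groups of genes were formed after their values were seen and are a description. Late neutrophil markers, 11 genes in the files such as S100a8, Ltf and Camp, were as a sum also highest in replicate 1. Replicates 6 and 8 held 12.4% and 1.24% of that sum, where Ly6c2 stood at 45.8% and 30.8%. The summed level of these markers was 5.53, 30.3 and 6.87 CPM in enhancer-null CMP, against 2240, 278 and 27.7 CPM in wild-type CMP. In LSK it was 9.45, 28.3 and 19.3 CPM in enhancer-null cells, against 1440, 291 and 137 CPM in wild-type cells. Of these markers 0 of 9 tested passed edgeR's test in CMP and 0 of 8 in LSK, with 7 and 6 at an unadjusted p under 0.05 and 6 and 5 called by DESeq2. The smallest p belonged to Retnlg in CMP, at 0.203 ± 0.236 CPM in enhancer-null and 33.5 ± 46.6 CPM in wild-type cells (edgeR adjusted p = 0.172), and to Camp in LSK, at 0.296 ± 0.119 CPM in enhancer-null and 59.8 ± 74.6 CPM in wild-type cells (edgeR adjusted p = 0.113). Without a count were 2, 1 and 6 of the 11 in enhancer-null CMP, against 0, 0 and 3 in wild-type CMP. Replicate 1 was also highest of the wild-type CMP libraries for summed B cell markers (137, 43 and 26.4 CPM) and mast cell and basophil markers (263, 57.8 and 60.5 CPM). It was the deepest of the 3 as well. The part of any of these in the levels of Ms4a6d, Ly6c2, Fcgr1, Cybb and Lgals3 was not tested.

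**Figure D4:**
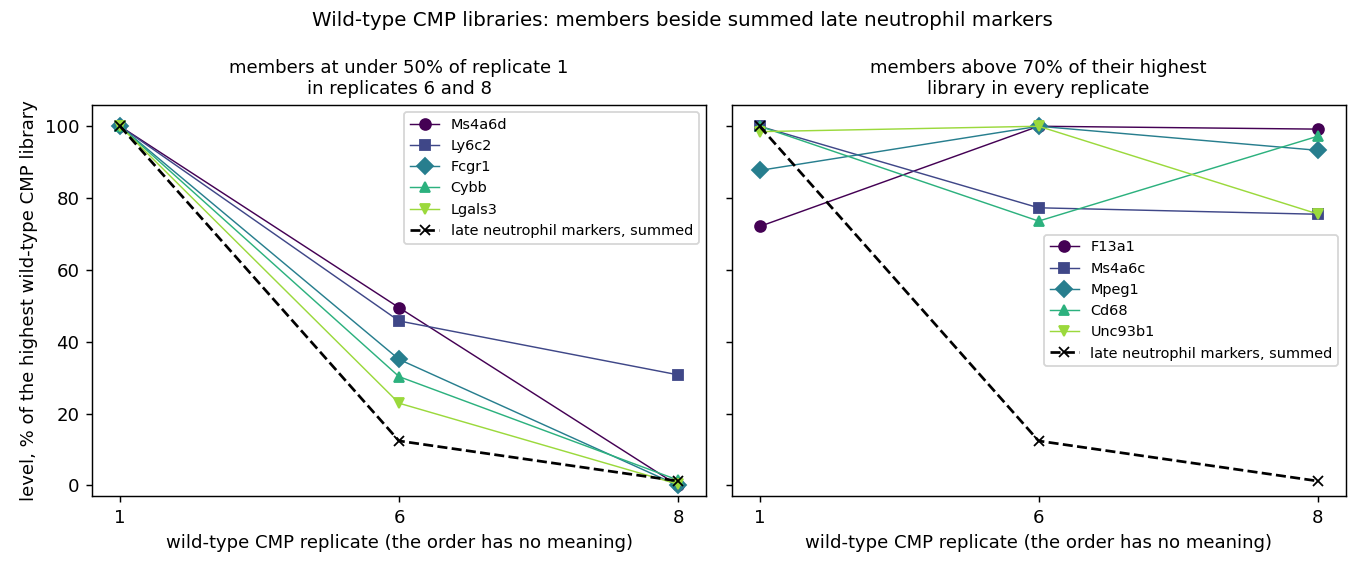
Level of each gene in the 3 wild-type CMP libraries as a percent of its highest library there, beside the summed late neutrophil markers (dashed line). In replicate 8 Cybb was at 1.5%, Lgals3 at 0.355% and the neutrophil sum at 1.24% of replicate 1, while the 5 even genes stayed at 72.1% or more of their highest library.

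Other lists were read for cells that could carry the 10 genes. Of 14 markers of resident and mature macrophages, 4 could be tested in CMP and none passed edgeR's test, with 0 at an unadjusted p under 0.05 and 0 called by DESeq2, and 13, 7 and 9 of them had no count in enhancer-null CMP, against 2, 1 and 11 in wild-type CMP. Cd163, a scavenger receptor of macrophages, had the smallest p, at 1.02 ± 0.951 CPM in enhancer-null and 10.1 ± 3.18 CPM in wild-type CMP (edgeR adjusted p = 0.489). In LSK it was at 11.4 ± 4.53 CPM in enhancer-null and 3.13 ± 1.43 CPM in wild-type cells (edgeR adjusted p = 0.697). Adgre1, which encodes the F4/80 antigen, was at 0 in all enhancer-null CMP libraries and at 4.89, 2.23 and 0 CPM in wild-type CMP, and Marco was at 0 in all 12 libraries. Slc40a1, the iron exporter, made up most of the sum of 87.5, 81.4 and 47.1 CPM in enhancer-null CMP and 93, 75.8 and 35.1 CPM in wild-type CMP. Dendritic cell markers summed to 169, 160 and 237 CPM in enhancer-null CMP, against 648, 737 and 448 CPM in wild-type CMP, with 0 of 10 tested past edgeR's threshold, 2 at an unadjusted p under 0.05 and 1 called by DESeq2. The one with the smallest p was Flt3, a receptor of early progenitors and dendritic cells, at 68.6 ± 38.7 CPM in enhancer-null and 427 ± 148 CPM in wild-type CMP (log2 fold change −2.63, SE 0.52, edgeR adjusted p = 0.0884). Flt3 made up most of the wild-type sums, at 347, 597 and 336 CPM, against 86.7, 24.1 and 95 CPM in enhancer-null CMP. Of the 10 tested, 8 had a negative and 2 a positive log2 fold change. Itgax was one of the positive ones (2.31), with overlapping libraries. In LSK 0 of 9 passed, with 5 at an unadjusted p under 0.05 and 3 called by DESeq2. Cd74, the invariant chain of antigen presentation, had the smallest p there, at 29 ± 15.1 CPM in enhancer-null and 141 ± 17.8 CPM in wild-type LSK (log2 fold change −2.25, SE 0.42, edgeR adjusted p = 0.144).

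Of 9 mast cell and basophil markers, 6 could be tested in CMP, with 3 positive and 3 negative log2 fold changes, and 2 passed as higher. These were Cpa3, a mast cell protease, at 1100 ± 211 CPM in enhancer-null and 41.7 ± 20.1 CPM in wild-type CMP (log2 fold change 4.74, SE 0.37, edgeR adjusted p = 0.00425), and Gzmb, granzyme B, at 463 ± 190 CPM in enhancer-null and 0.808 ± 1.02 CPM in wild-type CMP (log2 fold change 9.0, SE 0.94, edgeR adjusted p = 0.0121). Cpa3 and Gzmb made up most of the summed level of the list, which was 1760, 1400 and 1620 CPM in enhancer-null CMP, against 263, 57.8 and 60.5 CPM in wild-type CMP. Hdc, histidine decarboxylase, stood the other way, at 0.576, 1.18 and 1.46 CPM in enhancer-null CMP, against 23, 14.7 and 15.3 CPM in wild-type CMP (log2 fold change −4.02, SE 1.02, edgeR adjusted p = 0.171). The basophil proteases Mcpt8 (log2 fold change −1.48, edgeR adjusted p = 0.755) and Prss34 (0 CPM in all enhancer-null CMP libraries, and 113, 0.39 and 0 CPM in wild-type CMP, not tested) and the receptor chain Ms4a2 (log2 fold change −0.81, edgeR adjusted p = 0.924) had lower means in enhancer-null CMP too, with overlapping libraries. In LSK 1 of 4 passed, Cpa3, at 480 ± 154 CPM in enhancer-null and 8.05 ± 4.49 CPM in wild-type cells (log2 fold change 5.94, SE 0.50, edgeR adjusted p = 0.0128).

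Erythroid markers, summing to 1170, 2240 and 600 CPM in enhancer-null and 1470, 1620 and 1460 CPM in wild-type CMP, had 0 of 5 past edgeR's threshold, 0 at an unadjusted p under 0.05 and 0 called by DESeq2. The smallest p was that of Epor, the erythropoietin receptor, in CMP (edgeR adjusted p = 0.566) and of Car1 in LSK (edgeR adjusted p = 0.795). B cell markers had 0 of 5, with Ms4a1 at an unadjusted p under 0.05 and called by DESeq2, at 0 CPM in all enhancer-null CMP libraries and 16, 1.17 and 5.17 CPM in wild-type CMP (edgeR adjusted p = 0.218). In LSK the 1 tested, Cd79b, did not pass (edgeR adjusted p = 0.87). T and NK cell markers had 1 of 3, Lat, at 80.4 ± 23.1 CPM in enhancer-null and 12.1 ± 0.467 CPM in wild-type CMP (log2 fold change 2.74, SE 0.36, edgeR adjusted p = 0.0256), and 0 of 4 in LSK, where Nkg7 had the smallest p (edgeR adjusted p = 0.23) and was called by DESeq2. In CMP DESeq2 called Nkg7 too, at 260 ± 61.1 CPM in enhancer-null and 84.9 ± 37.3 CPM in wild-type cells. Klrd1 was alike in both, at 3.76 ± 5.33 and 3.7 ± 0.612 CPM. Cd3e, Cd3d, Cd3g, Cd2, Cd5 and Ncr1 were too low to be tested in CMP, with group means of 0.993 CPM or less. The part of the erythroid, B, T and NK cell markers in the levels of the 10 genes was not tested. In the list of sorting-gate genes 0 of 7 tested passed edgeR's test in CMP, 5 with a positive and 2 with a negative log2 fold change. An unadjusted p under 0.05 was found for 3, and DESeq2 called 3 (Kit, Cd34 and Ptprc). Cd34 was at 383 ± 97.6 CPM in enhancer-null and 804 ± 86.3 CPM in wild-type CMP (log2 fold change −1.06, SE 0.21, edgeR adjusted p = 0.0884). Kit (579 ± 119 against 343 ± 82.8 CPM), Ptprc (444 ± 121 against 164 ± 56.1 CPM) and Fcgr3 (19.7 ± 1.66 against 4.49 ± 4.11 CPM) were higher in enhancer-null CMP, without overlap. In LSK 1 of 8 passed, Cd48, which separates multipotent progenitors from stem cells, at 278, 296 and 283 CPM in enhancer-null LSK, against 100, 118 and 122 CPM in wild-type LSK (log2 fold change 1.36, SE 0.16, edgeR adjusted p = 0.0437).

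Among 34 classical monocyte genes beyond the 10, 29 could be tested in CMP and none passed edgeR's test, with 15 at an unadjusted p under 0.05 and 12 called by DESeq2. The log2 fold change was negative for 21 and positive for 8. Psap, the precursor of the lysosomal saposins, came closest, at 160 ± 50.8 CPM in enhancer-null and 469 ± 52.6 CPM in wild-type CMP (log2 fold change −1.54, SE 0.26, edgeR adjusted p = 0.0545). Csf1r, the receptor that monocytes need for survival, was at 4.84, 22.8 and 22.7 CPM in enhancer-null CMP, against 98.3, 175 and 141 CPM in wild-type CMP, without overlap (edgeR adjusted p = 0.0884). In LSK it stood the other way, at 81.1, 40 and 22.7 CPM in enhancer-null cells, against 10.3, 4.96 and 6.06 CPM in wild-type cells (edgeR adjusted p = 0.253), and its genotype effect was lower in CMP than in LSK by the interaction test (difference −5.77, SE 0.89, edgeR adjusted p = 0.0184). Ccr2, the receptor with which monocytes leave the marrow, overlapped, at 180, 44.2 and 4.01 CPM in enhancer-null and 121, 67.3 and 60.7 CPM in wild-type CMP. Of the 12 genes called by DESeq2, Ccr1 and Itgam were higher in enhancer-null CMP, without overlap, and the others were lower. Ccr1 was at 57.6 ± 35.3 CPM in enhancer-null and 6.52 ± 3.25 CPM in wild-type CMP (edgeR adjusted p = 0.122). Itgam was at 73.3 ± 10.7 and 34 ± 7.22 CPM (edgeR adjusted p = 0.218). In LSK 27 could be tested and none passed edgeR's test, 16 with a positive log2 fold change, 11 at an unadjusted p under 0.05 and 8 called by DESeq2. Plac8, a small protein of myeloid cells, had the smallest p there, at 885 ± 200 CPM in enhancer-null and 369 ± 29.7 CPM in wild-type LSK (log2 fold change 1.29, SE 0.19, edgeR adjusted p = 0.0869).

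Of 14 transcription factors of the monocyte lineage, 13 could be tested in CMP, 7 with a positive and 6 with a negative log2 fold change. Of these 1, Irf8, passed edgeR's test, with 5 at an unadjusted p under 0.05 and 4 called by DESeq2 (Irf8, Cebpa, Cebpb and Egr1). Cebpb and Egr1 were higher in enhancer-null CMP, without overlap. Cebpb was at 262 ± 167 CPM in enhancer-null and 86.8 ± 25.6 CPM in wild-type CMP (log2 fold change 1.6, edgeR adjusted p = 0.213). Egr1 was at 361 ± 193 and 83.4 ± 36.2 CPM (log2 fold change 2.13, edgeR adjusted p = 0.103). Cebpa itself did not pass (log2 fold change −8.34, SE 1.6, edgeR adjusted p = 0.0822), although it was nearly absent from enhancer-null CMP. Irf8, on which monocytes and dendritic cells depend, fell to 83.5, 78.4 and 69.5 CPM in enhancer-null CMP, against 508, 595 and 388 CPM in wild-type CMP (log2 fold change −2.68, SE 0.21, edgeR adjusted p = 0.00425). Spi1, which encodes PU.1, was at 130, 135 and 219 CPM in enhancer-null and 156, 120 and 103 CPM in wild-type CMP, interleaved. In LSK 0 of 13 passed edgeR's test, with 6 at an unadjusted p under 0.05 and 3 called by DESeq2, among them Zeb2, at 170 ± 67.6 CPM in enhancer-null and 72.6 ± 13.9 CPM in wild-type LSK (log2 fold change 1.25, SE 0.34, edgeR adjusted p = 0.371). Of 8 listed genes of granulocyte and monocyte progenitors, not all of them granule proteins, 2 fell in CMP. These were Ctsg (log2 fold change −3.49, SE 0.37, edgeR adjusted p = 0.0123), a serine protease of primary granules, and the lectin Clec12a (log2 fold change −1.93, SE 0.29, edgeR adjusted p = 0.0398). All 8 had a negative log2 fold change in CMP, with 5 at an unadjusted p under 0.05 and 4 called by DESeq2. In LSK 1 of the 8 rose, Mpo, the myeloperoxidase of primary granules, at 1770 ± 540 CPM in enhancer-null and 365 ± 74.7 CPM in wild-type LSK (log2 fold change 2.31, SE 0.26, edgeR adjusted p = 0.0395). In CMP Mpo stood the other way, at 2740 ± 424 CPM in enhancer-null and 4470 ± 423 CPM in wild-type cells, called by DESeq2 but not by edgeR.

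The genes most like the 10 across the series were ranked by Pearson's r of log2(CPM + 1) with the mean profile of the 10 over the 12 libraries, among the 10180 genes that averaged 5 CPM or more. They were Hp (r = 0.959), 2810417H13Rik (0.924), Igsf6 (0.923), Lsm7 (0.919), Mrpl23 (0.91), Park7 (0.908), Hdc (0.901) and Elane (0.897), given as a description, since the 12 points share 4 groups and library depth. Hp was at 0, 1.57 and 0 CPM in enhancer-null CMP and 74.1, 34.6 and 16.4 CPM in wild-type CMP. Igsf6 was at 0, 3.62 and 0 CPM in enhancer-null and 54, 42.6 and 36.7 CPM in wild-type CMP. Of the 10 genes themselves, Ms4a6c (0.901), F13a1 (0.897) and Ly6c2 (0.89) lay closest to the mean profile, and Fcgr1 (0.608), Cd68 (0.55) and Ms4a6d (0.513) lay farthest from it. Each of the 10 is itself part of that mean, so their r cannot be set beside those of the other genes.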

How the data were processed

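RNA of sorted CMP and LSK was amplified with the SMARTer Ultra Low kit and sequenced in pairs of 75 bases, per the labels' protocols. The authors deposited whole-number read counts per gene symbol, 1 file per library. The submitters' processing notes name TopHat2 2.0.4, TopHat, Bowtie, HTSeq and build mm10; the annotation, counting mode and use of strand are not given in these sources. Rows that name no gene, 37.2 to 46.9% of the counts of a library, entered neither library sizes nor tests. Wild-type CMP replicate 6 lists 23456 symbols and the other files 24420, so the files were joined on 22779 shared symbols and 607 older names, which left out 0.0693 to 0.297% of gene counts.

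Each pair of groups was fitted alone with edgeR 4.0.16 (R 4.3.3) by the quasi-likelihood test, with TMM scaling, the filterByExpr filter (minimum count 10) and p-values adjusted by Benjamini-Hochberg over all genes tested at 0.05, two-sided. The interaction used all 4 groups, and SE was computed as the log2 fold change over the square root of F. In counts simulated for enhancer-null against wild-type CMP, 64% of genes changed by 4 on the log2 scale were recovered, with 4.65% of calls false. For the interaction 18% of such genes were recovered. The simulation gave every gene the same dispersion and changed none of the lowest-expressed genes, so its shares need not hold for the 10 genes. Replicates differed by more than sampling noise (chi-square per degree of freedom of 43 or more). Alternatives were DESeq2 1.42.0, RLE scaling, no filter, all groups in 1 fit, sex as a covariate, a replicate block, leaving out each library and, added after seeing the data, identical symbols only.

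The 10 genes and all lists were chosen with earlier results of these data known. Named were the 10 genes, from each list up to 3 genes past the threshold or else the one with the smallest p in each genotype comparison, and the 8 genes most like the 10. Ms4a6b in CMP, Fcer1g, Tlr7, Tlr8, Tlr9, F13b, Adgre1, Marco, Slc40a1, Rac1, Rac2, Nox1, Nox4, Ncf4, Hdc, Mcpt8, Ms4a2, Prss34, Csf1r, Ccr2 and Spi1 were added after their values were seen. So were the test result of Cebpa and the level of Mpo in CMP. The CMP values of Cebpb, Egr1, Ccr1, Itgam, Itgax, Fcgr3, Kit, Ptprc, Nkg7, Klrd1 and the untested T and NK cell markers were too. Positions are from GENCODE M21, lengths are unions of exons, and promoters are from RefSeq's table.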

Additional observations from a re-analysis of the deposited data

Results flagged for a closer look

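The genotype effect on Unc93b1, the carrier of endosomal Toll-like receptors, differed between CMP and LSK. Its log2 fold change of enhancer-null over wild-type cells was −2.43 in CMP and 0.05 in LSK, and the test of the difference over the 12 libraries gave −2.44 (SE 0.38, edgeR adjusted p = 0.0184, and 8.63e-07 to 0.107 over 17 alternatives). The level was 48 ± 16.2 CPM in enhancer-null CMP and 260 ± 39.1 CPM in wild-type CMP, and 113 ± 24.6 CPM in enhancer-null LSK and 111 ± 17 CPM in wild-type LSK (SD, n = 3 each).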

How the results depend on the processing

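In enhancer-null against wild-type CMP, 3 of the 10 genes passed and 62 of all genes. DESeq2 called 6 and 628, sex as a covariate gave 1 and 31, no filter 269 of all genes, all 4 groups in 1 fit 232, and leaving out each library gave 0 to 3 and 7 to 91. In LSK none of the 10 passed under any alternative run. Of all genes there, 12 passed, and 39 did with no filter, 269 with DESeq2, 26 with all 4 groups in 1 fit, 3 with sex as a covariate and 1 to 21 with 1 library left out. In wild-type CMP against wild-type LSK, 4 of the 10 and 507 of all genes passed. All 4 groups in 1 fit gave 2 of the 10, DESeq2 called 1606 of all genes, and leaving out each library gave 1 to 4 and 56 to 882. In enhancer-null CMP against enhancer-null LSK no alternative called any of the 10, while of all genes no filter called 9, DESeq2 205, all 4 groups in 1 fit 37 and leaving out each library 0 to 0. For the interaction, 1 of the 10 and 37 of all genes passed, and no filter called 2 and 68, DESeq2 2 and 186, and leaving out each library 0 to 3 and 12 to 107. The cause of these changes was not tested.

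The replicate number pairs no samples by the labels, and the deviations of same-numbered CMP and LSK libraries correlated at −0.107 to 0.161. With that number as a block, 1 of the 10 (Ms4a6c) and 137 of all genes passed in wild-type CMP against LSK, and 0 of the 10 and 7 of all genes in the interaction. No paired analysis was possible for enhancer-null against wild-type cells because these groups share only the number 1.

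Values that changed sign all belonged to genes that did not pass. With sex as a covariate the LSK log2 fold change was 0.10 for Cd68 and −0.0019 for Unc93b1, and with the replicate block the interaction was −4.02 for Cybb and −1.05 for Lgals3. With each library left out in turn, the LSK log2 fold change ran from −0.33 to 0.74 for Ms4a6c, −0.39 to 0.41 for Cd68 and −0.14 to 0.17 for Unc93b1, that of wild-type CMP over LSK from −0.84 to 2.51 for Lgals3, and the interaction from −5.72 to 1.79 for Cybb and −6.18 to 4.96 for Lgals3. Fcgr1 and Ms4a6d were too low to be tested between genotypes in either cell type.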
